A study of Cucumis sativus with 18 samples.

Results

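Cucumber (Cucumis sativus) ovules after 2 days of culture were set against embryos after 30 days of culture. The question was which differences from fresh ovaries seen at day 2 were still present a month on and which were gone. The comparison used 6 of the 18 RNA-seq libraries of an ovary culture series, 3 at each time. The reference for both times was 3 libraries of fresh unpollinated ovaries. Genes were kept if their RPKM (reads scaled to the length of the gene and the size of the library) was at least 1 in 3 or more of the 18 libraries, which left 18153 of 23248 genes. Over the 6 libraries of the comparison alone, 16941 genes reached this level in 3 or more. All libraries carry the tissue label ovary, and the time label names fresh ovaries, ovules cultured for 2 days or embryos cultured for 30 days. The labels give no cultivar, medium, temperature or donor plant, so every group is described by its time and stated tissue only. What was sampled therefore changed together with time, and the effects of culture, of development and of the tissue taken cannot be told apart. In such bulk samples fewer cells of a type and less RNA per cell cannot be told apart either.

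Culture of unpollinated ovaries is used in cucurbits to obtain plants from the unfertilised female gametophyte. Cells inside the ovule that would normally await fertilisation can enter embryo development in culture, and plants raised from them can carry a single maternal set of chromosomes, which breeders double to obtain fully inbred lines. Excision and transfer to medium also bring wounding and a new supply of hormones and sugar, so early changes in culture can reflect stress, reprogramming or both. Gene names do not come with the deposited values, and 0 of the 23248 IDs matched the RefSeq gene table of cucumber, so genes are given by ID without a role. Marker genes of ovule or embryo could not be looked up for the same reason.

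Between 21.8 M and 71.0 M reads fell on genes in each of the 6 libraries, where M stands for a count of reads in units of 1e+06. Across genes, r between pairs of replicates on log2(RPKM + 1) was 0.974 to 0.987 at day 2 and 0.978 to 0.986 at day 30. The replicate 3 library was the deepest at every time of the series, with 48.9 M to 72.5 M reads. The 10 most abundant genes took 7.71% to 10.4% of the summed RPKM at day 2 and 6.37% to 6.48% at day 30. The series design calls the 3 libraries of a time biological replicates. Whether they came from separate plants or cultures is not stated, so the p-values measure the spread between these libraries.

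Embryos at day 30 differed from ovules at day 2 in 9245 genes, or 50.9% of those tested, at an adjusted p under 0.05. Of these, 5509 genes (30.3% of all tested) were higher and 3736 (20.6%) were lower at day 30. A called difference of at least 2-fold on the log2(RPKM + 1) scale was found in 3536 genes (19.5%), of which 2231 were higher (12.3%) and 1305 lower (7.19%). At 4-fold or more these numbers were 645 and 403, at 16-fold or more 61 and 38, and at 64-fold or more 8 and 7. For 10935 genes (60.2%) every library of one time lay above every library of the other, with day 30 above for 6488 (35.7%) and below for 4447 (24.5%). The excess of higher genes moved with the scaling. The median difference over all tested genes was 0.10 on the log2 scale as deposited and 0.00 once libraries were scaled by median ratios. With that scaling 4680 genes were called higher and 4535 lower. Tested against a 2-fold change rather than against none, 1136 genes were higher and 649 lower.

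**Figure D1:**
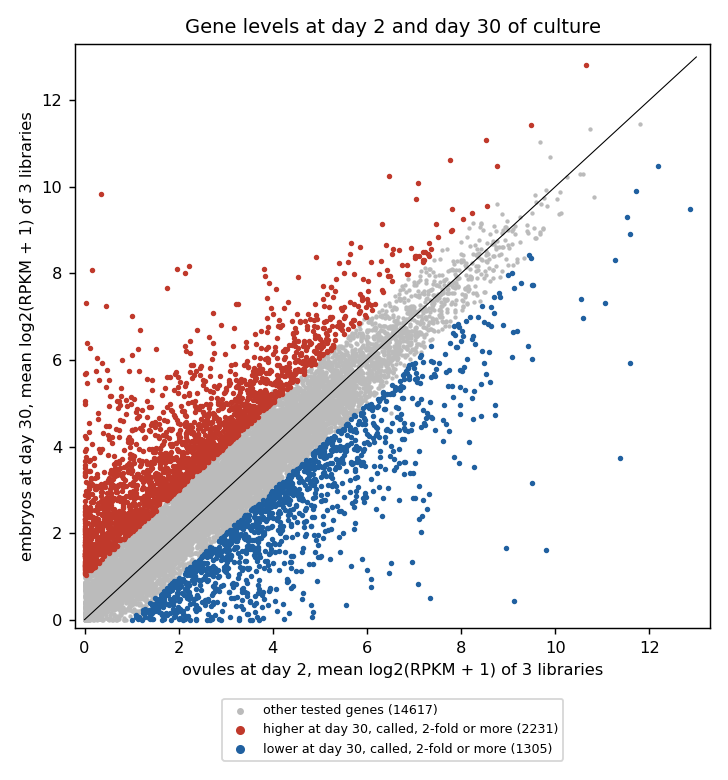
Mean level of each tested gene in ovules at day 2 (horizontal) and in embryos at day 30 (vertical), both as log2(RPKM + 1) over 3 libraries, with the line of equal levels. Red points are the 2231 called genes at least 2-fold higher at day 30 and blue points the 1305 at least 2-fold lower. Genes near 0 on the horizontal axis and high on the vertical one were almost silent at day 2.

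A gene that was not called is not thereby shown to be unchanged, so the interval of the difference was read as well. The 95% interval of day 30 minus day 2 lay within 2-fold either way for 11510 genes, or 63.4%, and 7804 of these were also not called. For 1104 genes that were not called the interval reached 2-fold or beyond, so a difference of that size lies within the interval there. Calls were fewer among low genes. They took in 28.4% of the 1354 genes with a mean under 1 RPKM over the 6 libraries, and 63.0% of the 695 genes at 100 RPKM or more. The median interval was 0.45 wide on either side for the former and 0.28 for the latter, in log2 units.

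The gene with the largest difference, Csa7G037530, was almost silent in ovules and abundant in embryos. Its RPKM was 0.0929, 0.133 and 0.654 in the 3 day 2 libraries, on 13 reads in all, and 1210, 768 and 833 at day 30. Fresh ovaries held 0, 0.384 and 0.555, so it was low there as well. The log2 difference was 9.50 (SE 0.25, adjusted p = 3.00e-13). Csa4G625060 showed the same course, with 0, 0.154 and 0.206 RPKM at day 2 and 327, 235 and 251 at day 30. Fresh ovaries listed this gene at 0 in 2 libraries and at 0.147 in the third. Csa6G092510 was at 0.0119, 0 and 0.0760 RPKM at day 2 and at 132, 167 and 181 at day 30. It differed from the former pair in its timing. Its mean was 1.23 at day 10 and 22.7 at day 20, while Csa7G037530 already stood at 1353 at day 10. All 3 were lower at day 60 than at day 30 by their means, at 27.9, 10.2 and 37.4 RPKM.

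The other genes with the largest differences upwards had been present in fresh ovaries, were nearly lost at day 2 and were back at day 30. CsaUNG012530 stood at 90.8, 121 and 171 RPKM in fresh ovaries, at 0.695, 0 and 0.508 at day 2, and at 112, 134 and 228 at day 30. The day 2 values rest on 15 reads. Day 30 was above day 2 by 6.79 on the log2 scale (SE 0.62, adjusted p = 1.53e-07). Day 30 against fresh ovaries gave a log2 difference of 0.29 (adjusted p = 0.71), and the libraries of these groups overlapped. Csa3G078800 went beyond its starting level. It was at 13.5, 23.2 and 23.1 RPKM in fresh ovaries, at 0, 0.0447 and 0.0498 at day 2, and at 57.5, 94.7 and 105 at day 30.

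The 5 largest differences downwards were in genes that had risen from fresh ovaries to day 2. Csa7G452230 was at 511, 543 and 624 RPKM at day 2 and at 0.358, 0.145 and 0.571 at day 30, on 27 reads in the day 30 libraries together. Its log2 difference was -8.70 (SE 0.18, adjusted p = 2.45e-14). It was also below its level in fresh ovaries, 22.1, 30.5 and 31.9 RPKM. Csa5G027950 fell from 982, 1241 and 598 RPKM at day 2 to 4.53, 1.06 and 1.43, close to the 2.32, 3.94 and 1.28 of fresh ovaries. Csa2G021500 fell from 2465, 2904 and 2681 to 12.03, 13.2 and 11.8, which still lay above the 2.39, 0.738 and 0.889 of fresh ovaries. Csa5G285030 fell from 616, 736 and 263 to 2.72, 2.07 and 1.76, and Csa4G015100 from 138, 175 and 173 to 0.392, 0.380 and 0.505. In each of these genes every day 30 library lay below every day 2 library.

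**Figure D2:**
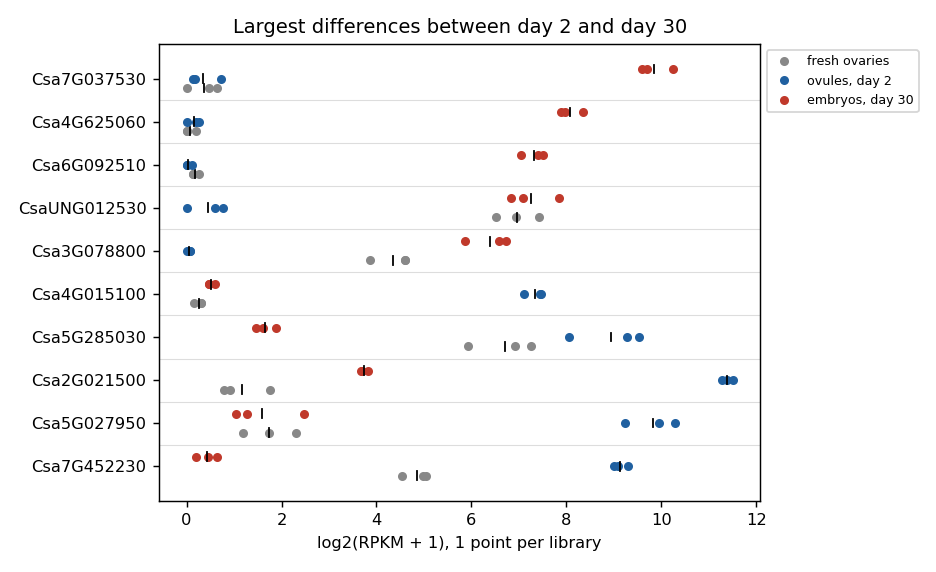
The 5 genes with the largest called difference in each direction between day 2 and day 30, with log2(RPKM + 1) on the horizontal axis and 1 point per library. Ticks mark the mean of the 3 libraries of fresh ovaries (grey), day 2 (blue) and day 30 (red). The upper 3 genes sit near 0 in fresh ovaries and at day 2 alike, while CsaUNG012530 and Csa3G078800 drop at day 2 and are back at day 30.

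Few genes went from silent to well expressed, or the reverse. Under 0.5 RPKM in each day 2 library and at 10 RPKM or more in each day 30 library stood 26 genes, or 0.143% of those tested. The reverse held for 12 genes, or 0.0661%. Of the 26 genes, 16 were also under 0.5 in each fresh library and 2 were at 10 or more there, so these 16 were not a return to the fresh state. At day 60, 8 of the 26 were at 10 RPKM or more in each library and 2 were under 0.5. The examples that follow were chosen after their values were seen. Csa4G111600 was listed at 0 in all fresh and day 2 libraries and had a mean of 33.0 RPKM at day 30 and 17.6 at day 60. Csa3G535100 was narrower in time, with means of 0.397 at day 20, 23.8 at day 30 and 1.01 at day 60. Of the 12 genes that were on at day 2 and off at day 30, 10 were under 0.5 in each day 60 library too. How many of all tested genes were under 0.5 or at 10 or more at these other times was not counted. No excess is therefore read from these counts. Csa2G177220 was at 11.7, 12.2 and 12.1 RPKM at day 2 and was listed at 0 in all libraries from day 10 onwards.

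The question of what persists was put to the genes that differed between fresh ovaries and ovules at day 2. These differences include any between ovary and ovule tissue, so the word response names the difference and not its cause. A response was a gene called between fresh ovaries and day 2 with a difference of at least 2-fold. There were 4819 of these, or 26.5% of genes tested, with 2387 that rose (13.1%) and 2432 that fell (13.4%). Called genes just inside and just outside the 2-fold limit had log2 differences of 1.00004 and 0.999772 among rises, so the limit divides a continuum. Between fresh ovaries and day 30, for reference, 62.2% of genes tested were called, 35.8% higher and 26.4% lower at day 30. A response was named kept if day 30 still differed from fresh ovaries in the same direction and was not called back towards fresh ovaries against day 2. It was partly kept if it still differed from fresh ovaries but was called back, gone if it was called back and not called against fresh ovaries, and overshot if it was called on the other side of the fresh level. The 3 comparisons share libraries, so the class counts are given as a description with no test of their own.

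Most day 2 responses still differed from fresh ovaries in the same direction at day 30. Kept and partly kept genes made up 73.2% of them, with a range of 69.2% to 78.8% over the alternatives run, and genes that were gone 18.1%, with a range of 14.4% to 21.3%. Taken apart, the kept and partly kept share ranged from 72.6% to 79.7% for rises and from 60.5% to 77.7% for falls. The lowest value for falls came with a pseudocount of 0.1. The gone share ranged from 14.9% to 20.4% for rises and from 13.4% to 22.7% for falls. Of the genes that rose, 1026 (43.0%) were kept, 787 (33.0%) partly kept, 431 (18.1%) gone and 102 (4.27%) overshot. Of the genes that fell, 975 (40.1%) were kept, 738 (30.3%) partly kept, 439 (18.1%) gone and 211 (8.68%) overshot. No class could be given to 41 and 69 genes, or 20 and 34 with the replicate block. Day 30 was held within 2-fold of day 2, by the 95% interval, for 724 (70.6%) of the kept rises and for 741 (76.0%) of the kept falls, against 63.4% of all tested genes. Of the kept rises, 304 (29.6%) were called higher still at day 30 than at day 2, against 30.3% of all tested genes called higher. Of the kept falls, 189 (19.4%) were called lower still, against 20.6% of all tested genes called lower. Kept genes by definition exclude those called back against day 2, while all tested genes include calls in both directions. These shares are therefore not like for like, and no excess or lack is read from them. The number of kept rises depends on how low genes are handled. It was 1667 with a pseudocount of 0.1 and 1576 with voom on whole reads, while the falls that were gone numbered 682 with the former and the falls that overshot 351 with the latter.

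**Figure D3:**
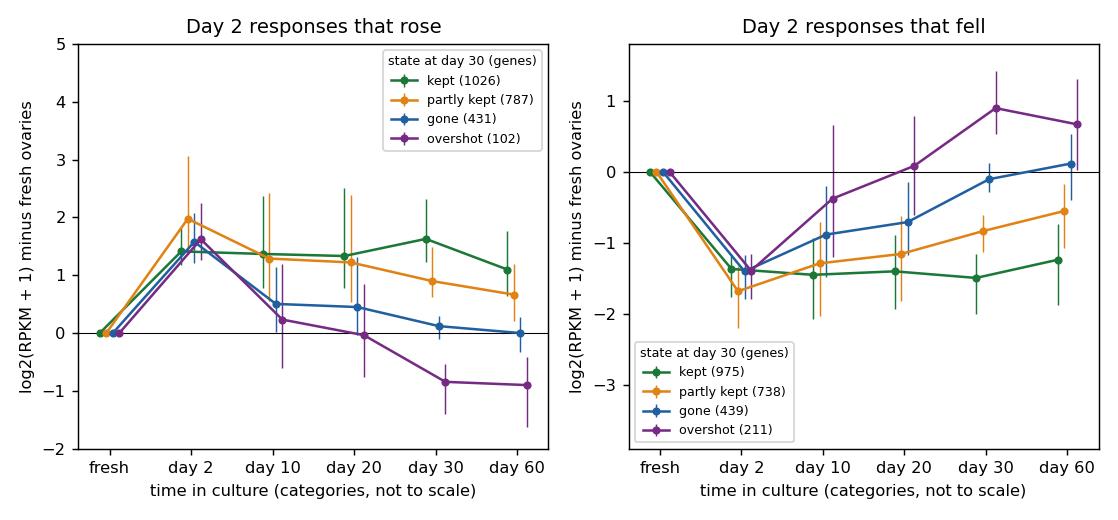
Median difference from fresh ovaries, in log2(RPKM + 1), of the day 2 responses that rose (left) and fell (right) at each of the 6 times, split by their state at day 30. Bars span the lower to the upper quartile over genes. Fresh ovaries, day 2 and day 30 defined the classes and day 10, day 20 and day 60 did not. The kept rises run at 1.37 at day 10, 1.33 at day 20 and 1.10 at day 60.

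The strongest of the kept rises stayed at high levels for a month. Csa5G161900 was at 0, 0.574 and 1.72 RPKM in fresh ovaries, at 572, 494 and 454 at day 2 and at 445, 690 and 682 at day 30. The day 2 and day 30 libraries overlapped, with a log2 difference of 0.24 (95% interval -0.32 to 0.79). Between these times it passed through a higher level, with a mean of 2903 at day 20. Csa7G037600 rose from 5.54, 3.32 and 5.42 RPKM to 467, 379 and 467 at day 2 and further to 1389, 1523 and 1363 at day 30. The further rise was 1.71 on the log2 scale (SE 0.18, adjusted p = 6.60e-07). Csa5G155450 likewise stood at 0, 0.0641 and 0.154 in fresh ovaries, at 132, 148 and 170 at day 2 and at 286, 383 and 430 at day 30.

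The 3 largest rises at day 2 were partly kept. Csa4G000860, the most abundant gene of the day 2 libraries, went from 3.88, 0.103 and 2.32 RPKM in fresh ovaries to 7149, 8177 and 7086 at day 2. It was at 763, 754 and 643 at day 30, where its log2 difference from day 2 was -3.37 (SE 0.37, adjusted p = 1.15e-06) and from fresh ovaries 8.10 (adjusted p = 3.49e-11). Most of this rise, counted on the log2 scale, was thus still there, at a share of 0.71. Csa3G142960 went from 2.43, 0.932 and 1.05 RPKM to 2045, 2514 and 1890 and then to 200, 154 and 130, a share of 0.62 left. Csa2G021500, described above, kept a share of 0.25.

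Rises that were gone were called down from day 2 and not called against fresh ovaries. The 95% interval of day 30 minus fresh ovaries lay within 2-fold for 340 of the 431 (78.9%), against 54.8% of all tested genes, a difference that the choice of the class favours. Csa4G015100 had 0.115, 0.240 and 0.238 RPKM in fresh ovaries, and its day 30 values, given above, were above these by 0.25 on the log2 scale (95% interval -0.23 to 0.74, adjusted p = 0.35). Csa6G337520 was listed at 0 in the 3 fresh libraries, at 40.9, 47.6 and 49.2 RPKM at day 2 and at 0, 0.728 and 0.144 at day 30, on 9 reads. It was already down to a mean of 3.52 at day 10. Over this class the median difference from fresh ovaries was 1.58 at day 2, 0.51 at day 10, 0.45 at day 20, 0.12 at day 30 and 0.00 at day 60. Most of the median drop thus came before day 10. Less than 50% of the log2 response was left at day 10 in 295 of the 431 genes (68.4%). This held for 21.2% of kept rises, 38.0% of partly kept rises and 68.6% of rises that overshot. The class requires a return by day 30, which favours a low share at day 10 too.

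Rises that overshot ended below the fresh level. Csa3G778430 was at 1.45, 2.22 and 2.32 RPKM in fresh ovaries, at 61.0, 64.0 and 78.1 at day 2 and at 0.642, 0.749 and 0.692 at day 30. Csa6G485670 went from 1.85, 1.83 and 3.08 to 63.9, 58.9 and 79.7 and then to 1.04, 0.693 and 1.06. In both genes the day 30 libraries lay below all fresh libraries, by 0.81 (adjusted p = 1.64e-03) and 0.74 (adjusted p = 1.48e-03) on the log2 scale. The class as a whole stayed low at day 60, with a median of -0.90 against fresh ovaries.

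Among the falls, those that were kept included genes that came back in between. Csa4G499300 went from 69.4, 73.4 and 62.7 RPKM in fresh ovaries to 1.73, 0.590 and 2.07 at day 2 and 2.37, 0.560 and 2.43 at day 30. The day 2 and day 30 libraries overlapped, with a 95% interval of the log2 difference from -0.42 to 0.71. At day 20 it was at 16.2, 16.1 and 12.1 RPKM, above every day 2 and day 30 library. Csa2G263890 continued downwards, from 191, 171 and 141 RPKM to 8.38, 6.07 and 6.49 and then to 0.487, 1.48 and 1.80. Csa6G486790 also ended lower at day 30 than at day 2, at 0.856, 0.893 and 1.07 RPKM against 2.00, 2.33 and 2.64, from 74.7, 73.5 and 82.4 in fresh ovaries. Its mean was 368 RPKM at day 10 and 54.9 at day 20, so a kept response at day 30 does not mean that a gene stayed low throughout.

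Falls that were partly kept had a median of -1.68 against fresh ovaries at day 2 and of -0.84 at day 30. In 296 of the 738 (40.1%) the 95% interval of day 30 minus day 2 lay within 2-fold. The 3 largest falls of this class moved further. Csa2G368900 was at 61.8, 58.8 and 50.3 RPKM in fresh ovaries, at 0.998, 1.15 and 1.11 at day 2 and at 37.4, 32.7 and 29.6 at day 30. Csa6G190350 went from 132, 71.7 and 85.6 to 3.44, 0.797 and 1.42 and came back to 44.9, 44.8 and 47.1. Csa2G379990 recovered less, from 40.2, 42.3 and 38.4 to 0.671, 0.411 and 0.344 and then 11.1, 10.2 and 8.90. In each of the 3 genes the day 30 libraries lay between those of day 2 and those of fresh ovaries without overlap.

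Falls that were gone, CsaUNG012530 among them, were called up from day 2 and not called against fresh ovaries. The 95% interval of day 30 minus fresh ovaries lay within 2-fold for 366 of the 439 (83.4%), and for CsaUNG012530 it ran from -1.03 to 1.61. Csa7G372360 was at 166, 220 and 265 RPKM in fresh ovaries, at 2.66, 1.77 and 2.82 at day 2 and at 171, 193 and 251 at day 30. Csa7G336480 went from 351, 254 and 278 to 18.7, 10.2 and 11.6 and back to 304, 262 and 263, and its mean rose further to 570 at day 60. The day 30 and fresh libraries overlapped in both genes. The median over this class was -1.40 at day 2, -0.88 at day 10, -0.71 at day 20 and -0.10 at day 30. Less than 50% of the log2 response was left at day 10 in 193 of these 439 genes (44.0%), against 295 of the 431 rises that were gone. This held for 17.2% of kept falls, 29.3% of partly kept falls and 60.7% of falls that overshot. Whether falls and rises differ in pace was not tested.

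Falls that overshot ended above their starting level. Csa3G027210 was at 87.9, 132 and 126 RPKM in fresh ovaries, at 4.04, 2.57 and 4.58 at day 2 and at 220, 311 and 338 at day 30. Csa3G046230 went from 24.0, 30.7 and 16.02 to 0.162, 0.116 and 0.285 and then to 56.0, 57.5 and 45.5. In both, every day 30 library lay above every fresh library, by 1.32 (adjusted p = 3.05e-05) and 1.17 (adjusted p = 1.90e-04) on the log2 scale. At day 60 the means of these 2 genes were 42.3 and 23.8 RPKM. Over the class of 211 the median at day 60 was 0.67 above fresh ovaries, with quartiles of 0.02 and 1.30.

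The classes were also counted by the size of the day 2 response. Of the 1648 genes that rose 2- to 4-fold, 50.5% were kept and 24.4% partly kept. Of the 603 that rose 4- to 16-fold, 28.5% were kept and 47.3% partly kept. Of the 136 that rose 16-fold or more, 16.2% were kept and 73.5% partly kept, and 7.35% were gone. For falls the kept share was 42.4% of 1924 genes, 32.0% of 478 and 23.3% of 30 in the same ranges. A larger response leaves more room for a called return, so these shares depend on size by construction as well. The median share of the log2 response left at day 30 does not use the classes. It was 0.70, 0.52 and 0.49 for the 3 ranges of rises and 0.61, 0.56 and 0.44 for falls. The day 2 response is the divisor of this share and also sets the ranges, so part of its fall with size is built in too. The trend itself was not tested.

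**Figure D4:**
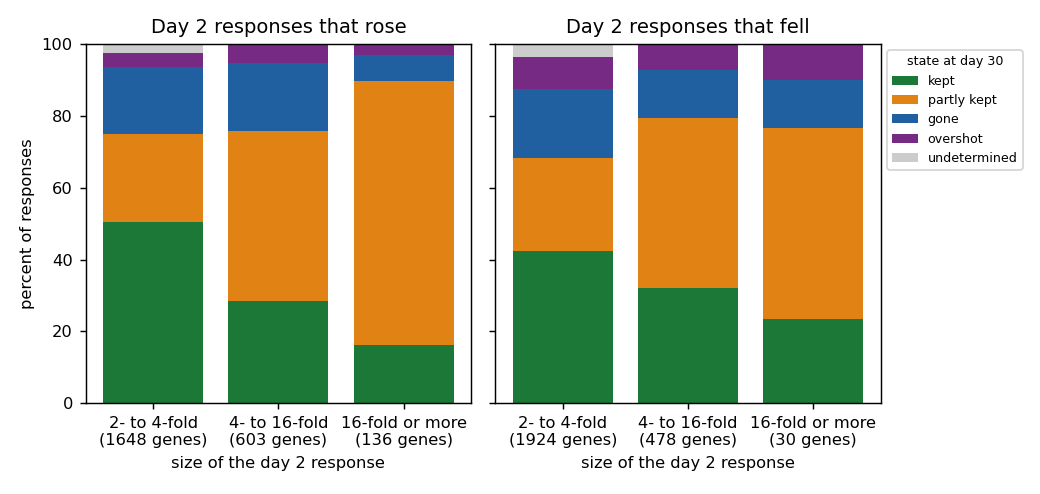
Percent of day 2 responses in each class at day 30, for genes that rose (left) and fell (right), by the size of the day 2 response on the log2(RPKM + 1) scale. Numbers of genes stand under the bars. The kept part shrinks from 50.5% to 16.2% of rises and from 42.4% to 23.3% of falls, and the part of falls of 16-fold or more rests on 30 genes.

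Over all rises the median share left at day 30 was 0.65, with quartiles of 0.29 and 1.00, and over all falls it was 0.60, with quartiles of 0.23 and 0.93. Genes chosen for a large difference tend to have that difference overstated in the libraries that chose them. The responses were therefore also chosen on replicates 1 and 2 alone and measured in replicate 3. The median share was then 0.68 over 2401 rises and 0.60 over 2496 falls. The fresh library of replicate 3 enters both differences of this share, and the replicate 3 libraries deviated together across times. How far the choice of genes alters the share was therefore not measured.

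The libraries of day 10, day 20 and day 60 took no part in the classes and show how continuous the responses were. Of the 1026 kept rises, 575 (56.0%) were also at least 2-fold above fresh ovaries at both day 10 and day 20, and 397 (38.7%) at day 60 as well. Of all tested genes, 10.6% were that far above at both times and 4.79% at day 60 as well. Of the 975 kept falls, 592 (60.7%) were at least 2-fold below at both times and 395 (40.5%) at day 60 as well, against 10.9% and 4.16% of all tested genes. At day 60 taken alone, 55.8% of kept rises, 31.8% of partly kept rises and 4.87% of those gone were at least 2-fold above fresh ovaries, against 12.3% of all tested genes. The corresponding values for falls were 63.8%, 27.8% and 7.29%, against 10.1%. All these differences use the same fresh libraries as the choice of the responses, so a higher share than the background is built in to an extent that was not measured.

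The weight of the day 2 responses in the RNA was followed as their part of the summed RPKM. Genes that rose at day 2 held 6.47%, 6.50% and 6.21% of the summed RPKM in the 3 fresh libraries and 31.0%, 31.1% and 30.7% at day 2, values that their choice fixes. They held 24.3%, 23.4% and 23.7% at day 10, 23.9%, 24.0% and 24.1% at day 20, and 16.4%, 16.8% and 16.5% at day 30. At day 60 they held 13.7%, 14.1% and 13.9%. The classes were set by the change from day 2 to day 30, so how this loss divides among them is fixed in part by their definition. The partly kept rises went from 17.6% ± 0.347 (SD, n = 3) to 5.73% ± 0.0926. The kept rises went from 6.90% ± 0.309 to 9.21% ± 0.165. Genes that fell at day 2 moved from 27.9% ± 0.882 in fresh ovaries to 7.63% ± 0.402 at day 2. They held 14.4% ± 0.998 at day 10, 16.3% ± 0.673 at day 20, 15.5% ± 0.407 at day 30 and 20.3% ± 0.252 at day 60. The total was thus near its day 30 level by day 10 to day 20, but its parts still moved. From day 10 to day 30 the kept falls went from 3.88% to 2.85% and the partly kept from 5.50% to 5.52%. The falls that were gone went from 2.91% to 4.08% and those that overshot from 2.00% to 2.95%. The class definitions fix this division in part as well.

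**Figure D5:**
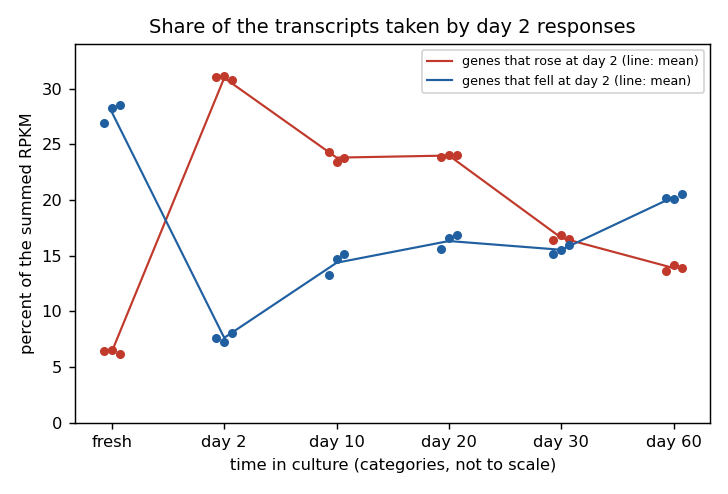
Percent of each library's summed RPKM held by all 2387 genes that rose at day 2 (red) and all 2432 that fell (blue), with 1 point per library and a line through the means. Fresh ovaries and day 2 chose these genes and the other times did not. The red points come down from about 31.0% at day 2 to 16.4% to 16.8% at day 30, and the blue points average 15.5% there.

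The 3 most abundant genes of day 2 and those of day 30 were different ones, although Csa3G271360, the third at day 30, ranked 4 at day 2. Behind Csa4G000860, the day 2 libraries were led by Csa7G398090, at 4404, 4802 and 4717 RPKM, and Csa6G239680. Csa7G398090 fell to 1341, 1528 and 1428 at day 30 (log2 difference -1.70, SE 0.12, adjusted p = 4.63e-09), which was also below the 2772, 3786 and 3657 of fresh ovaries. Csa6G239680 stood among them through 1 library, and ranked 36 without it. It was at 832, 10642 and 677 RPKM at day 2 and at 2829, 1458 and 159 at day 30, and its log2 difference of -1.06 (adjusted p = 0.53) turned to 0.21 without replicate 2 of day 2. At day 30 the leading gene was Csa5G606810, which rose from 1896, 1850 and 1206 RPKM to 7099, 7896 and 6802 (log2 difference 2.16, SE 0.22, adjusted p = 6.54e-07). Csa3G734260 followed, at 633, 637 and 919 RPKM at day 2 and at 2152, 2413 and 4015 at day 30. The third, Csa3G271360, was at 3260, 3311 and 4196 at day 2 and at 2771, 2696 and 2932 at day 30, a small called fall of 0.35 on the log2 scale (adjusted p = 8.38e-03).

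The abundant genes that were narrowly bounded between the 2 times, with the deposited scaling, were Csa3G154390, Csa2G247040 and Csa5G458280. With median-ratio scaling their log2 differences were -0.42, -0.36 and -0.14. Whether the bound holds with that scaling was not tested. Csa5G458280 was at 1233, 1240 and 1170 RPKM at day 2 and at 1317, 1206 and 1079 at day 30, and its log2 difference lay between -0.34 and 0.30 with 95% confidence. It was itself a kept response, up from 664, 585 and 484 in fresh ovaries. Csa3G154390 was at 1485, 1512 and 1665 RPKM at day 2 and 1172, 1266 and 1333 at day 30. This fall of 0.31 on the log2 scale was called (adjusted p = 2.62e-03). Csa2G247040, at 1715, 1519 and 1245 and then 1296, 1182 and 1278, was not called (log2 difference -0.24, adjusted p = 0.11), but was called with the replicate block (adjusted p = 0.029), under both other scalings (adjusted p = 0.027 and 0.024) and without replicate 3 of day 2 (adjusted p = 0.018).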

How the data were processed

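Per the labels' protocols, poly(A) RNA from Trizol extracts, after DNase digestion, went into paired-end Illumina libraries. TopHat2, TopHat and HTSeq 0.6.1p2 are named in the submitters' processing notes. Genome build, annotation, gene lengths and strand setting: not given in the sources used here. How reads of near-identical or overlapping genes were assigned was not tested. The values the authors deposited are RPKM per library, per the file headers. For fresh ovaries the 3 library names share a single header cell, and the columns were taken in that order. RPKM is scaled to the reads of the library, so more reads on some abundant genes lower the values of the others.

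Values of log2(RPKM + 1) were fitted in limma 3.58.1 (R 4.3.3) with a trended, robust empirical Bayes variance. All 18 libraries entered 1 model with a coefficient per time. Calls use a Benjamini-Hochberg adjusted p under 0.05 over 18153 genes, two-sided. Fold changes on this scale are understated for low genes. Genes named are the 5 largest called differences with no overlap in each direction, the 3 largest day 2 responses of each class, the 3 most abundant of each time and the 3 most abundant with a 95% interval within 0.5 log2 units. The members, lists and tests were chosen with earlier results of these data known. Gene lists by function could not be formed.

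Whole reads were recovered from the steps of the RPKM values, within 0.1 of a read, for 21761 of 21761 genes above 0, and summed to 99.999% or more of the library totals. On simulated reads 18 of 18 totals and 99.9% of genes with 50 or more reads came back. Read numbers overstate precision, since reads carry no molecular identifiers. The fit was tested on simulated data for day 30 against day 2 (17658 genes). It found 22 of 67 changes of 1.5-fold, 53 of 67 of 2-fold and 62 of 66 of 4-fold, with 6.25% of calls false. Of 50 made for each class, it placed 48 as kept, 36 as partly kept and 47 as gone. All of these were rises of 4-fold at day 2, and all changed genes had over 50 expected reads. The simulated libraries shared no deviations by replicate number. Placement of smaller responses, falls, overshoots and low genes was therefore not measured.

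Libraries with the same replicate number deviated together, most clearly those of replicate 3. Their deviations from the time means correlated at 0.25, 0.20 and 0.54 between day 2 and day 30, at 0.25, 0.30 and 0.62 between fresh ovaries and day 2, and at 0.23, 0.20 and 0.51 between fresh ovaries and day 30. Between day 2 and day 30, replicates 1 and 2 also correlated across numbers, at 0.11 and 0.19. Pairs of replicate 3 with another number were at -0.24 to -0.36. Deviations from a time mean cancel out over its 3 libraries, so these negative values follow in part from the same-number correlation of replicate 3. The labels give only the number, and the data mainly set replicate 3 apart from replicates 1 and 2. Whether replicates 1 and 2 are matched by number was not tested. Plots used Python 3.11.15 and matplotlib 3.10.9.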

Additional observations from a re-analysis of the deposited data

How the results depend on the processing

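The alternatives were fixed with earlier results known; voom on the recovered reads, replicates 1 and 2 alone and the choice of responses on these replicates were added after seeing the data. Every named gene called between day 2 and day 30 was called in the same direction under all alternatives run on single genes, which leaves out the test against a 2-fold change, made for counts only. Of the named genes not called, only Csa2G247040 became called, as given above and with replicates 1 and 2 alone. The named genes were picked for size, which makes that stability nearly fixed. Of the counts, 262 of 294 alternatives stayed within 1.5 times. Called genes ranged from 8270 to 9178 when 1 library was left out, and were 10711 with the replicate block, 9329 with voom and 7687 with replicates 1 and 2 alone. The replicate block changed no other call of a named gene and moved no other count by over 1.5 times than those without a class, which became 20 rises and 34 falls. With a pseudocount of 0.1, kept rises numbered 1667, falls that were gone 682, and those without a class 107 rises and 196 falls. With a pseudocount of 0.5 the last pair was 80 and 126, with voom 108 and 147, and with replicates 1 and 2 alone 79 and 128. Voom also gave 1576 kept rises and 351 falls that overshot. Leaving out 1 library gave 52 to 76 rises and 71 to 124 falls without a class, the highest without replicate 2 of day 30. Tested against a 2-fold change, called genes were 1785, all of them at least 2-fold, 1136 higher and 649 lower. Rises tested this way gave 434 kept, 194 gone, 63 overshot and 1 without a class, and falls 352, 148, 98 and 0, fewer by construction. The cause of the other moves was not tested. Depth limits the low genes, since a low RPKM can mean a handful of reads.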

Other observations

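Among the 70 genes named above or found silent at one of the 2 times and well expressed at the other, 4 pairs of neighbours in the order of the deposited table lay within 10 rows of each other. This was noticed after the values were seen, genome positions for these IDs were not used here, and no test was made. Csa3G027200 and Csa3G027210 are adjacent rows. The former was listed at 0 RPKM in fresh ovaries and had means of 0.0250 at day 2 and 52.2 at day 30, the latter 115, 3.73 and 290. Csa7G375850 and Csa7G376360, 2 rows apart, had means of 0.203 and 0 at day 2, 66.0 and 18.1 at day 30 and 4.16 and 0.335 at day 60. Csa1G000730 and Csa1G001300, 8 rows apart, were at 0 and 0.0785 at day 2 and at 52.3 and 77.0 at day 30. Csa7G037530 and Csa7G037600, 7 rows apart, differed in their start, with 0.293 and 438 at day 2 and 937 and 1425 at day 30. Whether reads of similar gene copies were shared within such a pair was not tested.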
